A study of Mus musculus with 4 samples.

Results

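The genes described here were 8 transcription factors that can drive the epithelial-to-mesenchymal transition (EMT): *Snai1*, *Snai2*, *Zeb1*, *Zeb2*, *Twist1*, *Twist2*, *Prrx1* and *Foxc2*. They were taken by name from a table of 20197 mouse genes, which held 6 of the 8. RNA was sequenced from 4T1 cells, a mouse mammary carcinoma line that stands in for triple negative disease. The cells grew in culture, and the labels give their genotype as WT. The dye MitoSpy Red, at 20 nM in every sample, builds up in mitochondria as the voltage across their inner membrane (mitochondrial membrane potential, MMP) rises. The 5% of cells with most dye (high MMP) and the 5% with least (low MMP) were sorted, giving 2 high MMP and 2 low MMP samples of 100000 cells each. No unstained or unsorted sample was analysed here, so each group is described only against the other. Values are normalized reads, meaning the reads of a gene after each library was scaled to the same total, and differences are high minus low MMP on the log2(normalized reads + 1) scale. The libraries held 22591970 to 26395015 reads on genes.

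EMT is the program by which epithelial cells lose their junctions and gain motility, and it is used in development and by carcinoma cells that spread. SNAI1 and SNAI2 are zinc finger repressors, and ZEB1 and ZEB2 are larger zinc finger and homeodomain proteins. Both families bind E-box sequences in epithelial genes such as that of E-cadherin and recruit corepressors. TWIST1 and TWIST2 are basic helix-loop-helix proteins that bind E-boxes as dimers with E proteins, PRRX1 is a homeodomain protein and FOXC2 is a forkhead protein. Carcinoma cells commonly use only part of this set, and these proteins are also controlled after transcription, so the RNA levels below are not protein levels.

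The promoter windows of *Snai1* and *Twist1* are shown because these genes had the highest levels per length of transcript among the 8, and because E-boxes are what most of these factors bind. RefSeq windows on GRCm38.p6, from 250 bases before to 50 bases after a start site, were found for 5 of the 8 members (*Snai1*, *Zeb2* with 4 windows, *Twist1*, *Twist2* and *Prrx1*). Capitals mark the E-box letters CANNTG, which are the same on both strands. The *Snai1* window lies at chr2:167537945-167538244 on the plus strand and the *Twist1* window at chr12:33957421-33957720 on the plus strand.
Snai1: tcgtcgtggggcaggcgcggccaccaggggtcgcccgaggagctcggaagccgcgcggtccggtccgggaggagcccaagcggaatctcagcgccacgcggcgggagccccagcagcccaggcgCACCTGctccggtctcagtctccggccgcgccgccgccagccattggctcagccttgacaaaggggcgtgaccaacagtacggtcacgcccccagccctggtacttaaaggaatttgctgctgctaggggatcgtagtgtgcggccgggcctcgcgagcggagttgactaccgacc
Twist1: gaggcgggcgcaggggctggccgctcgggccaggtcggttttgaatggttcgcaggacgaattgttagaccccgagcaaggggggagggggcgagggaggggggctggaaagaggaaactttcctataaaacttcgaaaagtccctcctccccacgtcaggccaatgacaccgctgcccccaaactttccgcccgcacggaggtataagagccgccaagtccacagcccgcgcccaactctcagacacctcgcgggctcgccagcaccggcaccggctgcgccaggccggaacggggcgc
The *Snai1* window held 1 E-box, CACCTG, which begins at position -126 from the start site. This is the form that SNAIL and ZEB factors prefer, CAGGTG on the other strand. The *Twist1* window held none, nor did the windows of *Zeb2*, *Twist2* and *Prrx1*. Of all 32851 windows of this length, 72.3% held a CANNTG and 20.2% held CAGGTG or CACCTG on either strand. These matches are letters in a window and no binding was measured.

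To ask which EMT factors the sorted cells expressed, the reads behind each value were examined first. Of the 8 genes, 4 (*Snai1*, *Zeb2*, *Twist1* and *Foxc2*) had at least 100 reads in every library and 5 were above the floor of 3 reads in every library, the fifth being *Zeb1*. *Snai2* was listed in all 4 libraries but at or near that floor. *Twist2* and *Prrx1* have no row in the table, which holds only genes above 0 in at least 2 of the 4 samples, so no level or upper limit is given for them. Genes annotated antisense to them did have rows, *Gm29100* over *Twist2* with 5 to 7 reads and *Gm20471* over *Prrx1* with 1 to 6 reads per library. Levels of different genes can only be compared per length, here as normalized reads per kb of the longest annotated transcript. On this scale *Twist1* was highest, at 341 ± 41.0 (SD over the 4 libraries), followed by *Snai1* at 179 ± 21.3, *Zeb2* at 121 ± 15.6, *Foxc2* at 65.8 ± 7.36, *Zeb1* at 3.22 ± 0.606 and *Snai2* at 1.42 ± 0.776. The ranges of neighbours in this order did not overlap over the 4 libraries. *Twist1* stood at the 78.9th percentile of all genes on this scale and *Snai1* at the 68.2nd, whereas *Zeb1* stood at the 27.1st and *Snai2* at the 18.4th. The order of *Zeb2* depended on the length used. With all annotated exons merged (19942 bases against 9124 in the longest transcript) *Zeb2* had 45.1 to 60.6 and *Foxc2* 59.5 to 74.2 per kb, and the ranges of *Zeb1* (1.48 to 2.29) and *Snai2* (0.431 to 2.25) then overlapped.

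**Figure D1:**
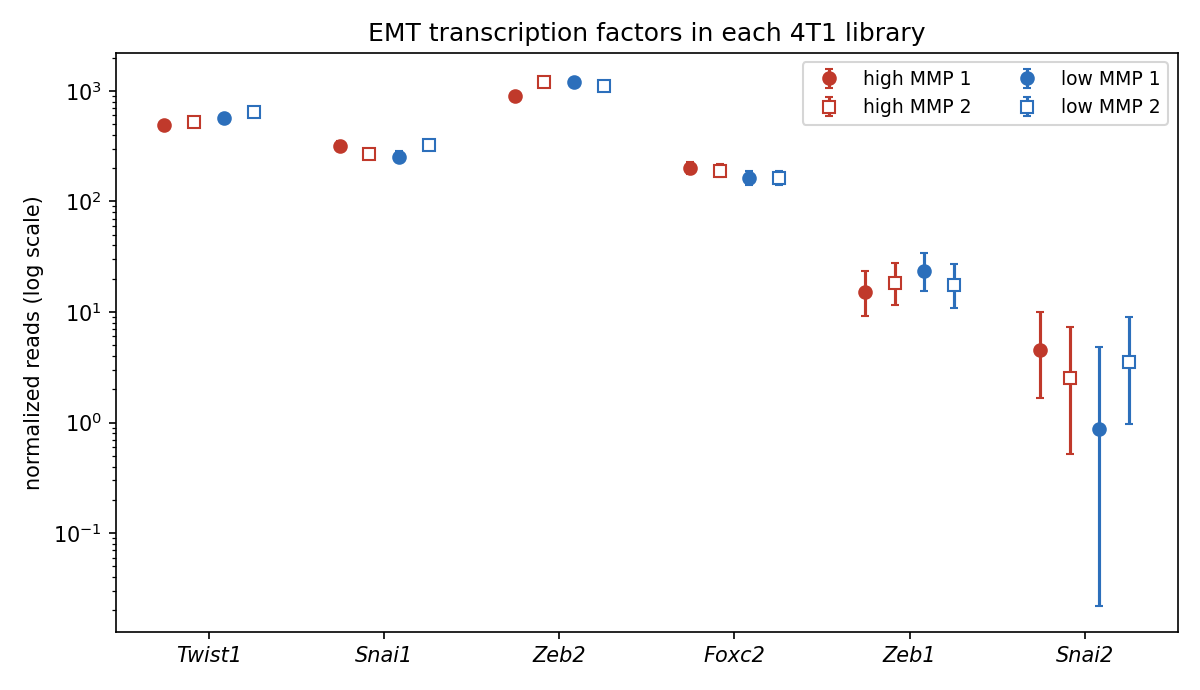
Normalized reads (log axis) of the 6 EMT transcription factors in the table, 1 point per library with its exact 95% Poisson interval, which covers counting error only. Red points are high MMP and blue points low MMP libraries. *Twist1*, *Snai1*, *Zeb2* and *Foxc2* lie between 162 and 1208, *Zeb1* lies between 15.2 and 23.5 and *Snai2* lies under 5 with wide intervals.

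The members of the ZEB and SNAIL families differed widely in level. Per kb of the longest transcript, *Zeb2* exceeded *Zeb1* 32.3-fold to 41.7-fold in the 4 libraries. Over all reads (5240 against 89) the ratio was 37.4 with a 95% interval of 30.4 to 46.7 from counting error only. The ratio was smaller with all annotated exons merged, where *Zeb2* averaged 55.1 and *Zeb1* 1.82 per kb over the 4 libraries. *Snai1* exceeded *Snai2* by a pooled ratio of 124 (95% interval 73.8 to 228), which rests on 1395 reads against 14. *Snai3*, a SNAIL family gene that is not among the 8, was at 11.1 per kb, between *Snai1* and *Snai2*. No such ratio is given for *Twist1*, since *Twist2* had no row. No run of 75 bases in any annotated transcript of the 8 genes occurred in a transcript of another gene, so exact copies of this length do not blur one family member into another. *Zeb2* exceeded *Zeb1* and *Snai1* exceeded *Snai2* in every library of both groups.

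No EMT transcription factor passed the test between high and low MMP cells, at an adjusted p under 0.05 in limma over all genes, and of the 20197 genes 0% did. At an unadjusted p under 0.05, 0 of the 6 members and 9.96% of all genes passed in limma. edgeR's quasi-likelihood test on the recovered reads called 0 members and 0% of all genes, and DESeq2 called 0 members and 0.985% of the 11974 genes to which it gave an adjusted p. *Snai2* and *Zeb1* received none in DESeq2. Libraries of this design were also simulated, with the same scatter between replicates set for every gene. That scatter was a chosen value and was not estimated from these libraries, so the simulated numbers of calls need not hold for them. Well counted genes were changed in them by larger folds than any member showed here. There limma called none of the changed genes whereas the count tests called many, so the absence of calls in limma does not show that levels were alike. Whether the count tests could call differences as small as those of the members was not tested. With 2 samples per group a two-sided exact permutation test on a single value cannot go below p = 0.333, so no such test is given. In bulk RNA of sorted cells, a smaller number of expressing cells and less RNA per cell cannot be told apart. The labels do not say whether the samples of a group came from separate cultures, though the study counts its samples as independent experiments or tumors, so the p-values refer to the spread between these samples.

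*Snai1* (ENSMUSG00000042821, GRCm38 chromosome 2, 167538195 to 167542814), a SNAIL family repressor, had 317 and 269 normalized reads in high MMP 1 and 2 and 254 and 322 in low MMP 1 and 2. The lowest and the highest of the 4 values were both low MMP samples, so the groups overlapped completely. The means were 293 ± 34.6 and 288 ± 48.5 (SD, n = 2 each), and the difference was 0.03 (SE 0.17, 95% interval -0.44 to 0.50, adjusted p in limma 0.994). The low MMP samples differed from each other by 0.34 on the same scale, far more than the group means did.

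*Snai2* (ENSMUSG00000022676, chromosome 16, 14705852 to 14709385), its close relative in neural crest and mammary basal cells, was counted at 6 and 3 reads in high MMP 1 and 2 and at 1 and 4 reads in low MMP 1 and 2. These counts straddle the floor of 3 reads and the groups overlapped. The ratio of high to low MMP over the pooled reads was 1.63 with a 95% interval of 0.490 to 6.19, an interval too wide to show a difference at these counts.

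*Zeb2* (ENSMUSG00000026872, chromosome 2, 44983632 to 45117395, minus strand) was the higher of the ZEB factors. It had 899 and 1208 normalized reads in high MMP 1 and 2 and 1194 and 1098 in low MMP 1 and 2. High MMP 1 was the lowest and high MMP 2 the highest of the 4, so the low MMP samples lay between the high MMP samples. The difference was -0.14 (SE 0.17, 95% interval -0.59 to 0.32, adjusted p in limma 0.878), and its direction rests on 1 library: without high MMP replicate 1 it was 0.077, and without high MMP replicate 2 it was -0.35. The antisense gene *Zeb2os*, which lies within the span of *Zeb2*, had 2 to 11 reads per library, against 1187 to 1443 for *Zeb2*. Whether the authors' counting used the strand is not stated.

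*Zeb1* (ENSMUSG00000024238, chromosome 18, 5591860 to 5775467), the ZEB factor most often tied to breast carcinoma EMT, was counted at 20 and 22 reads in high MMP 1 and 2 and at 27 and 20 in low MMP 1 and 2. As normalized reads these were 15.2, 18.4, 23.5 and 17.7, so low MMP 1 was the highest and low MMP 2 lay between the high MMP samples. The difference was -0.27 (SE 0.30, adjusted p in limma 0.855), with a 95% interval of -1.09 to 0.54, or 0.470-fold to 1.45-fold.

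*Twist1* (ENSMUSG00000035799, chromosome 12, 33957671 to 33959829), the TWIST factor with a row in the table, had 487 and 526 normalized reads in high MMP 1 and 2 and 564 and 644 in low MMP 1 and 2. Both high MMP values were below both low MMP values, a pattern seen in 24.5% of all genes and in 1 of the 6 members. The means were 507 ± 27.7 and 604 ± 56.3 (SD, n = 2 each), a difference of -0.25 (SE 0.11, 95% interval -0.55 to 0.05), with an adjusted p of 0.580 in limma. On the pooled reads, 1272 against 1374, high MMP cells had 0.838 of the low MMP level, with a 95% interval of 0.776 to 0.905 that covers counting error only. The difference was thus larger than the counting error but did not pass the test against the spread between replicates. *Zeb2*, whose groups overlapped, also had a pooled ratio outside its counting error, 0.912 (95% interval 0.864 to 0.963). Such an interval therefore does not tell a group difference from the spread between replicates. With any 1 library left out the *Twist1* difference was -0.35 to -0.16. Its sign could not turn there, because the groups did not overlap.

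*Foxc2* (ENSMUSG00000046714, chromosome 8, 121116171 to 121118895), a forkhead factor that acts in mesoderm and vessels and is induced during EMT, was the only other member without overlap, in the opposite direction. It had 202 and 190 normalized reads in high MMP 1 and 2 and 162 and 163 in low MMP 1 and 2. Both high MMP values were above both low MMP values, as in 13.5% of all genes. The means were 196 ± 8.73 and 163 ± 0.524 (SD, n = 2 each), a difference of 0.27 (SE 0.11, 95% interval -0.04 to 0.58), with an adjusted p of 0.566 in limma. Over the pooled reads, 494 against 370, the ratio was 1.21 with a 95% interval from counting error of 1.05 to 1.39. Without any 1 library the difference was 0.22 to 0.31, where the lack of overlap again fixed the sign. In all, 1 of the 6 members was above, 1 was below and 4 overlapped.

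**Figure D2:**
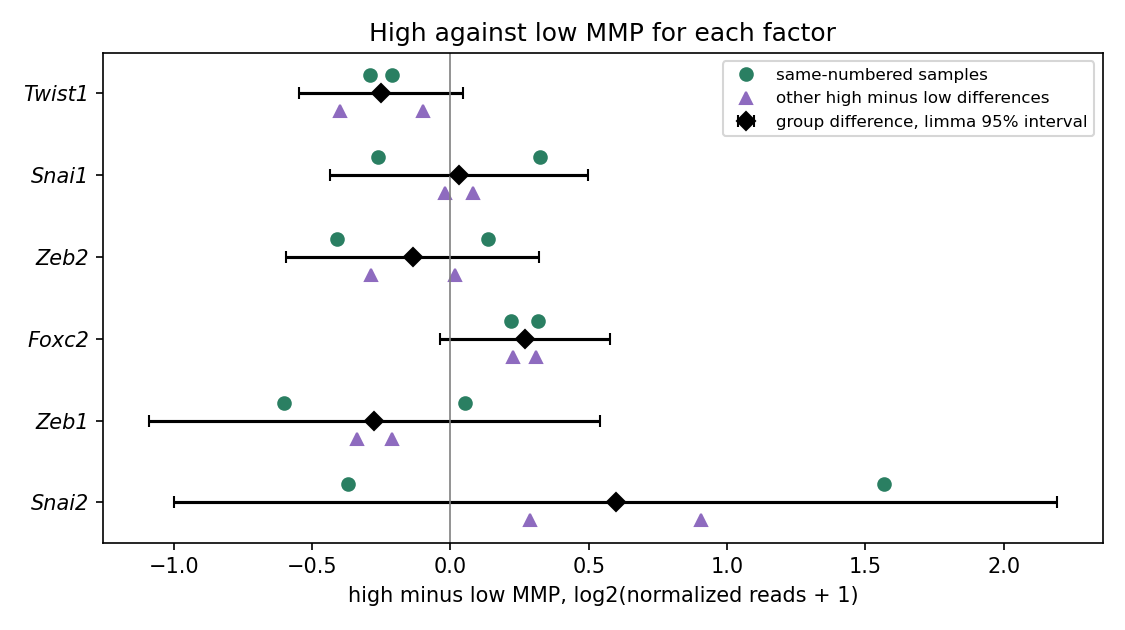
High minus low MMP differences of the 6 factors on the log2(normalized reads + 1) scale. Black diamonds are the group differences with their limma 95% intervals, all of which include 0, and coloured points are the 4 single high minus low differences of each gene, which fall on 1 side of 0 for *Twist1* and *Foxc2* and on both sides for *Snai1*, *Zeb2*, *Zeb1* and *Snai2*.

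The 4 well measured factors did not move as a group. Between the lowest and the highest library they varied 1.25-fold (*Foxc2*) to 1.34-fold (*Zeb2*). The library in which each was highest differed: high MMP 1 for *Foxc2*, high MMP 2 for *Zeb2* and low MMP 2 for *Snai1* and *Twist1*. Summed over the 6 genes per kb of transcript, the level was 673 and 696 in high MMP 1 and 2 and 698 and 779 in low MMP 1 and 2, of which *Twist1* made up 44.5% and 46.5% in the high and 49.6% and 50.7% in the low MMP libraries, and *Foxc2* 11.0% and 10.0% against 8.53% and 7.67%. Within a library, *Foxc2* per kb was 0.248 and 0.216 of *Twist1* in high MMP 1 and 2 and 0.172 and 0.151 in low MMP 1 and 2, a ratio that was chosen after its values were seen and is given without a test. Over only 4 samples many genes follow any one profile: between 27 (*Twist1*) and 288 (*Zeb2*) genes with a mean of at least 100 had a Pearson correlation above 0.99 with a member. The 2 closest were *Serf1* and *Tmem97* for *Snai1*, *Sema4d* and *Tor2a* for *Zeb2*, *Unc50* and *Nhlrc3* for *Twist1*, *2310030G06Rik* and *Tefm* for *Foxc2*, and *Cad* and *Phkb* for *Zeb1*, all over the same 4 libraries and their scaling.

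The libraries held both epithelial and mesenchymal RNAs, and bulk RNA does not show whether the same cells carried both. Of 8 mammary epithelial markers 7 were in the table, and *Krt5* had no row. The highest were *Krt18* at 11520 and *Krt8* at 8571 normalized reads per kb, *Epcam* at 2050 and *Cdh1*, the gene of E-cadherin, at 1099. The lowest of the 7 was *Cldn7* at 697. The keratin gene *Krt14* was furthest up among them, with 1368 and 1529 normalized reads in high and 1226 and 1100 in low MMP cells (difference 0.32, SE 0.10, adjusted p in limma 0.472). *Vim*, the gene of the mesenchymal filament vimentin, was at 10753 and the matrix gene *Fn1* at 6186 on the same scale. The other mesenchymal genes with a row ranged from 1.87 (*Mmp2*) to 3770 (*Mmp9*), whereas *Cdh2* (N-cadherin) and *Cdh11* had no row. Most markers of other cells were low, but *Cd68* (89.2 per kb) and *Pdgfra* (66.1 per kb) were at or above the level of *Foxc2*. Of 9 fibroblast markers 6 were in the table and only *Pdgfra* and *Col1a1* (difference -1.04, SE 0.79) had a mean of at least 10, while *Ptprc*, the pan-leukocyte marker, was at 0 to 2 reads. The leukocyte markers (3 of 6 in the table) summed to 72.0 to 156 normalized reads, mostly *Cd68* (difference -0.35, SE 0.50), a lysosomal gene not limited to leukocytes, and the endothelial markers (2 of 4) to 1.74 to 6.20. The fibroblast markers summed to 344 and 407 normalized reads in high MMP 1 and 2 and to 583 and 634 in low MMP 1 and 2, nearly all of it *Pdgfra*, a growth factor receptor gene that carcinoma cells can also express. *Pdgfra* had 319 and 363 in high and 536 and 589 in low MMP cells and differed by -0.72 (SE 0.11, adjusted p 0.472 in limma and 0.0399 in DESeq2). It moved in the direction of *Twist1*, and its part in that value was not tested.

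**Figure D3:**
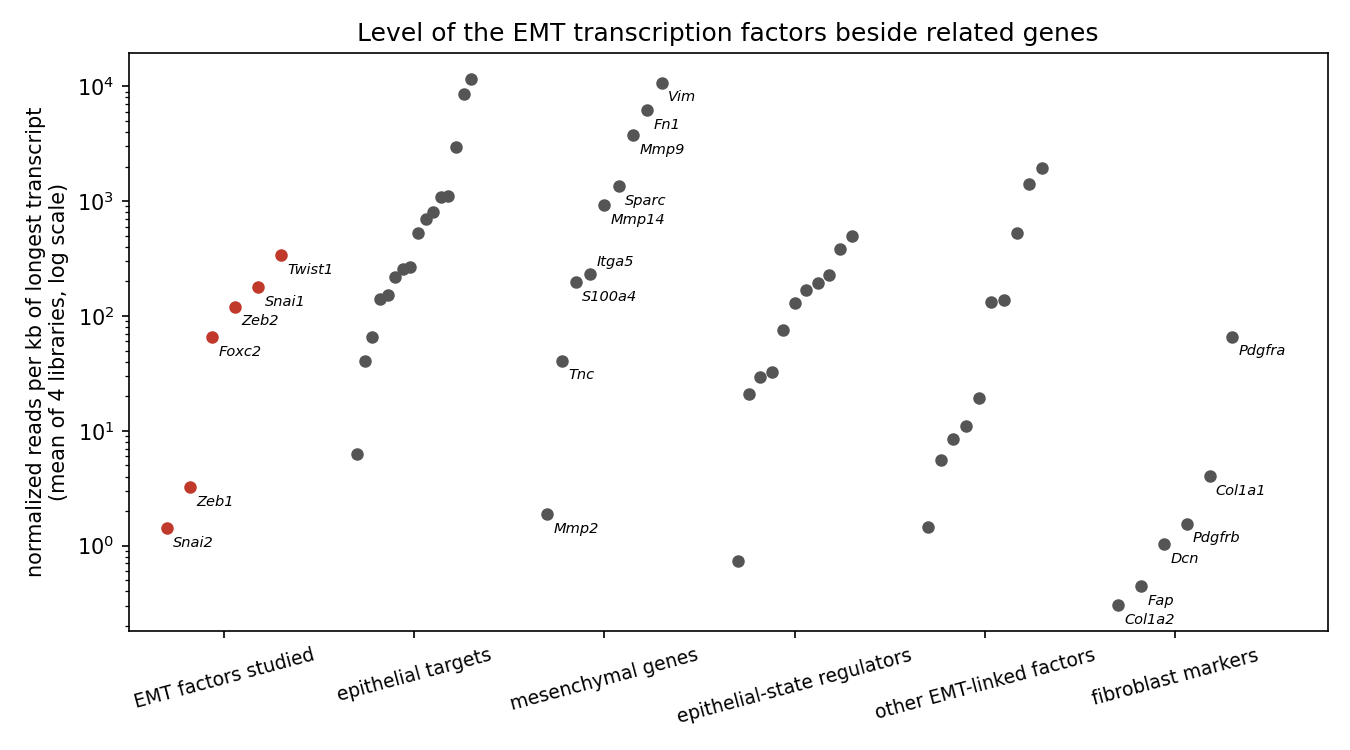
Level of each gene as normalized reads per kb of its longest transcript, mean of the 4 libraries, on a log axis, for the 6 EMT factors (red) and 5 lists of related genes (grey). *Twist1*, *Snai1*, *Zeb2* and *Foxc2* lie at 65.8 to 341, under *Vim* and *Fn1*, and *Zeb1* and *Snai2* lie in the range of the fibroblast markers other than *Pdgfra*.

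Next, the genes that the EMT factors act through and upon were compared between the groups, as lists and with the values of the gene furthest up and furthest down. No gene of these lists passed in limma. The median difference over all genes with a mean of at least 10 was -0.03, against -0.14 for the 5 members with such a mean. The members' median is the value of *Zeb2* alone, which was 0.077 without high MMP replicate 1.

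All 15 dimer partners and corepressors were expressed, with a median difference of -0.03. Among them *Tcf3*, which encodes an E protein that pairs with TWIST1, had 3219 and 3505 normalized reads in high and 3865 and 3816 in low MMP cells and differed by -0.19 (SE 0.09, adjusted p in limma 0.589), and was named after its values were seen. The largest differences were 0.26 for *Ajuba* (SE 0.21), a SNAIL corepressor adaptor, and -0.23 for *Ehmt2* (SE 0.08), the H3K9 methyltransferase G9a. Both high MMP values were below both low MMP values for 6 of the 15 and above for 1, against 24.5% and 13.5% of all genes. The 10 genes that set the stability of these proteins, 9 of them in the table, had a median of 0.10. *Gsk3b*, the kinase that marks SNAI1 for degradation, was at 1781 and 1859 in high and 1606 and 1418 in low MMP cells (difference 0.27, SE 0.10, adjusted p in limma 0.491), and *Fbxo45*, an E3 ligase subunit, differed by -0.27 (SE 0.09, adjusted p in limma 0.472).

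Of 11 other EMT-linked transcription factors 10 were in the table, with a median difference of 0.05 over the 9 with a mean of at least 10. *Klf8* had the largest difference, with 111 and 116 normalized reads in high and 75.8 and 66.4 in low MMP cells, 0.67 (SE 0.16, adjusted p in limma 0.472). *Hmga2*, the architectural factor that acts upstream of *Snai1* and *Twist1* in TGF-beta signalling, had 7807 and 9103 in high and 6542 and 5911 in low MMP cells, 0.44 (SE 0.12, adjusted p in limma 0.472), and was named after its values were seen. Of the 10 genes, 3 (*Klf8*, *Hmga2* and *Sox4*, the last named after its values were seen) had both high MMP values above both low MMP values and 2 had both below, against 13.5% and 24.5% of all genes, and none passed in limma. *Snai3*, the third SNAIL family gene, was low, with 15.9 and 13.4 in high and 23.5 and 19.5 in low MMP cells (difference -0.52, SE 0.28, adjusted p in limma 0.675).

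The regulators that hold cells in the epithelial state, 11 of 12 in the table, had a median of -0.02. *Ovol2*, a repressor of *Zeb1*, had 42.4 and 41.8 normalized reads in high and 22.7 and 23.0 in low MMP cells and differed by 0.86 (SE 0.21, adjusted p in limma 0.472), and *Klf4* had the lowest difference, -0.17 (SE 0.51), with values from 359 to 829 that overlapped. *Zeb1* itself was at 15.2 to 23.5 normalized reads in the same libraries.

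Among 16 epithelial genes known to be repressed by SNAIL or ZEB factors the median was -0.05, and 6 were positive and 10 negative. *Cdh1* was furthest down, with 3903 and 4726 normalized reads in high and 5421 and 5426 in low MMP cells and differed by -0.34 (SE 0.12, adjusted p in limma 0.498). *Muc1* was furthest up (0.46, SE 0.41) on 12 to 29 reads per library, and *Cldn4*, named after its values were seen, differed by 0.25 (SE 0.10). Of 11 mesenchymal genes 9 were in the table, and the 8 with a mean of at least 10 had a median of 0.10, from -0.31 for *Itga5* (SE 0.27) to 0.43 for *S100a4* (SE 0.36). *Vim* differed by -0.16 (SE 0.17) and *Fn1* by 0.09 (SE 0.27).

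**Figure D4:**
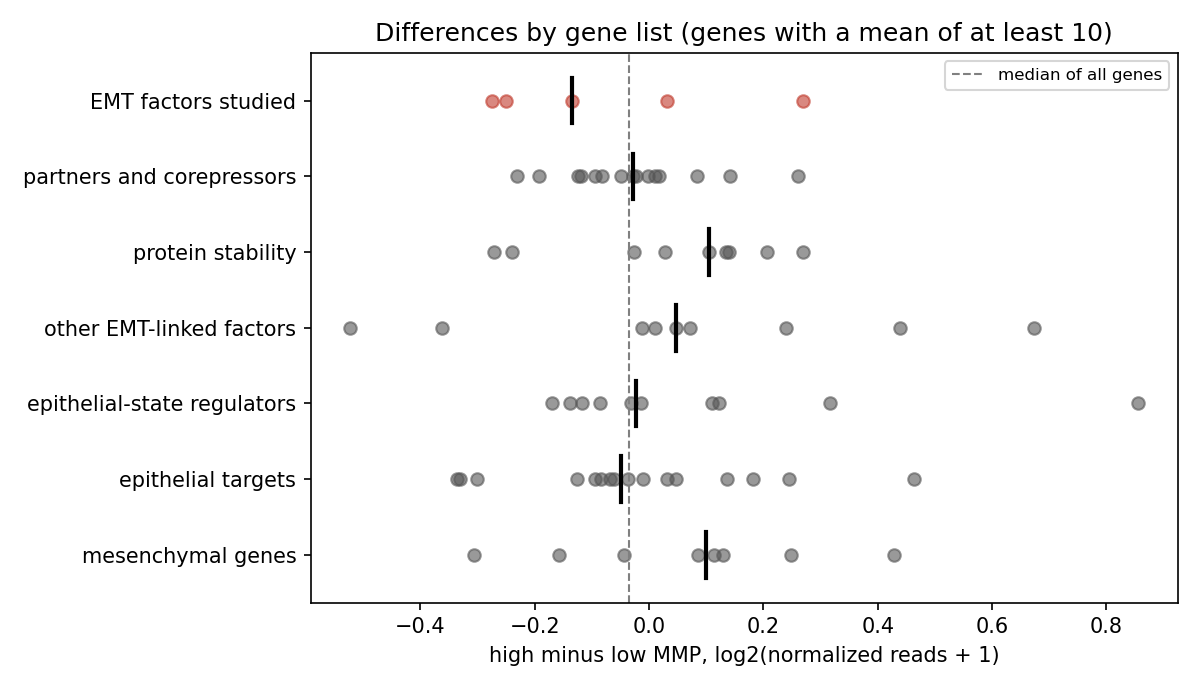
High minus low MMP differences on the log2(normalized reads + 1) scale, by list, where the mean was at least 10, with 1 point per gene, a black bar at each list's median and a dashed line at the median of all genes (-0.03). The medians lie between -0.14 for the EMT factors studied, which is the value of *Zeb2*, and 0.10 for the protein stability list, and each list holds genes on both sides of 0.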

How the data were processed

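RNA of sorted 4T1 cells was sequenced from stranded mRNA libraries (200 ng of RNA). The authors aligned reads to the mouse transcriptome (GRCm38, mm10) with STAR and counted them per gene. The processing notes name STAR and HTSeq without versions, and the annotation release and use of strand are not given in the sources used here. The authors divided counts by library size and kept genes expressed in at least 2 of the 4 samples. The deposited signal per gene sums to the same total in each library, and there were 0 columns of no sample. All values were whole multiples of 1 step per library (within 0.01), and these recovered reads gave depth, count tests and intervals. Intervals and floors cover counting error only.

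Identifiers were matched to GENCODE M21 (19993 of 20197). limma 3.58.1 (eBayes with a trend, R 4.3.3) on log2(value + 1) was fitted to all genes, with Benjamini-Hochberg adjustment over all genes, edgeR 4.0.16 (quasi-likelihood) and DESeq2 1.42.0 were run on recovered reads, and the fits were tested on simulated data, where all recovered the sizes and signs of the changes but limma called none of them. The members, gene lists and tests were chosen with earlier results of these data known. Named genes are the members, the genes furthest up and down in each list (mean 10 or more), and the 2 most correlated genes per member. Others are marked. Alternatives were other pseudocounts, filters, scaling and variance models, the replicate number as a block and leaving out each library.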

Additional observations from a re-analysis of the deposited data

How the results depend on the processing

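The count of EMT transcription factors passing the test was 0 as reported and in each alternative run, while over all genes it rose from 0 in limma to 106 in edgeR with a replicate block and 118 in DESeq2. The limma fit with the replicate block called 0 genes. The numbers in the titles are not tied to a shared culture or day, and deviations from the group mean correlated at -0.421 between samples with the same number, over 12902 genes with a mean of at least 10. With crossed numbers as the block, chosen after seeing the data, edgeR called 733 genes and limma 0, and no member in either, while edgeR then called 2 of the other EMT-linked factors and 1 each of the epithelial-state regulators, epithelial markers and fibroblast markers. *Twist1*, *Zeb1* and *Foxc2* kept their sign in all 17 alternatives, but many of these could not turn it. The filters, the variance model and the blocks in limma left the difference of each gene that they kept unchanged. For *Twist1* and *Foxc2*, whose groups did not overlap, leaving out 1 library could not turn it either. With 1 library left out, where the lone sample is assumed to vary like the other group, the difference ranged from -0.14 to 0.20 for *Snai1*, from -0.041 to 1.24 for *Snai2* and from -0.35 to 0.077 for *Zeb2*. The sign turned for *Snai1* without high MMP replicate 1 (-0.090) or low MMP replicate 1 (-0.14), for *Snai2* without low MMP replicate 1 and for *Zeb2* without high MMP replicate 1, and in no other alternative run. *Snai2* fell under the filter on a mean of at least 10. Median-of-ratios rescaling left 1 member above and 1 below without overlap, and 5 members had at least 10 reads in every library. Depth limits *Snai2* and *Zeb1*, which rest on 14 and 89 reads in all.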
